A study of Homo sapiens with 32 samples.

Results

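The Wnt feedback targets examined here were 10 genes chosen by name from the 35238 genes of the deposited table: AXIN2, NKD1, ZNRF3, RNF43, NOTUM, DKK1, LGR5, LEF1, TCF7 and SP5. Levels were read in all 32 libraries, as counts per 1000000 reads (CPM). Bulk RNA was sequenced from 4 human endometrial cancer cell lines, with 2 replicates in each of 16 groups. Ishikawa is labelled wild type for CTNNB1, the gene of beta-catenin, and Ishikawa-S33Y, SNGM and HEC265 are labelled CTNNB1-mutated. Ishikawa-S33Y bears the name of a beta-catenin substitution, and the labels do not say how it was made or whether it is 1 clone. Gene levels do not check these genotypes.

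Every culture was grown with serum and treated for 24 h. The vehicle was 0.1% DMSO. The drugs were paclitaxel, a taxane that stabilises microtubules, SM08502, an inhibitor of the CDC-like kinases that phosphorylate splicing factors, or both together, which is called the combination here. Each line received its own growth-inhibiting doses: 11 nM paclitaxel and 80 nM SM08502 in Ishikawa, 6 and 85 nM in Ishikawa-S33Y, 11.7 and 350.7 nM in SNGM, and 5.6 and 149 nM in HEC265. RNA input was 350 ng for Ishikawa libraries and 500 ng for the others. RNA input and line therefore cannot be told apart when Ishikawa is compared with the other lines, and dose and line cannot be told apart when treated groups of different lines are compared.

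In canonical Wnt signalling a ligand at Frizzled and LRP receptors stops the destruction complex from degrading beta-catenin, which then enters the nucleus and activates genes together with TCF and LEF proteins. Several of the genes so activated act back on the pathway, and their RNA is widely used as a readout of its activity. Substitutions in the amino-terminal degron of beta-catenin, which are common in endometrioid endometrial cancer, protect the protein from degradation without a ligand.

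The RefSeq promoter table (GRCh38.p14) held 5 of the 10 members, in 7 windows: SP5, DKK1, LEF1, TCF7 and RNF43. The 250 bases before each start were searched on both strands for 4 spellings of the TCF/LEF motif. They were CTTTGAA as the spelling listed first, CTTTGAT as the one listed next, then CTTTGTA and, as the last spelling, CTTTGTT. These cannot match at the same position of 1 strand. SP5 held 3 matches and DKK1 held 2, 1 of the 2 TCF7 windows held 1, and the LEF1 window and both RNF43 windows held 0. Among all 35116 windows of the same length, 12.0% held at least 1 match, 1.21% at least 2 and 0.122% at least 3. The windows of SP5 and DKK1 are shown because they held the most matches and because these genes had opposite patterns among the mutated lines on vehicle. SP5 lies on chr2:170715087-170715336 and DKK1 on chr10:52314031-52314280, both on the forward strand. Capitals mark the matches, which read TTCAAAG where CTTTGAA lies on the opposite strand.
SP5: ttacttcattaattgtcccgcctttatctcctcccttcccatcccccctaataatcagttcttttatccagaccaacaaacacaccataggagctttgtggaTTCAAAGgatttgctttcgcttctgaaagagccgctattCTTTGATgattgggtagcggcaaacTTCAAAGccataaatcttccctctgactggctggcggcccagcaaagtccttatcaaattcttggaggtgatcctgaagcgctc
DKK1: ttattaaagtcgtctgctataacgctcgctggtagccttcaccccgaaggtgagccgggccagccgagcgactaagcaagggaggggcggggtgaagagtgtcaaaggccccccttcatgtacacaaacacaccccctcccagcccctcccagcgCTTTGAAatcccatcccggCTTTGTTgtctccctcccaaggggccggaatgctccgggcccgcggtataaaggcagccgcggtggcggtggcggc
In SP5 the matches began 148, 109 and 84 bases before the start, and in DKK1 they began 95 and 76 bases before it. A match describes the letters of this window and is not a measured binding site.

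Whole reads recovered from the table numbered 13.03 M to 34.1 M in 30 libraries, where M is 1000000 reads. Replicate 2 of the combination was shallow, with 2.99 M for Ishikawa-S33Y and 1.61 M for SNGM, where 3 reads are worth 1.00 and 1.87 CPM. The epithelial markers were above 1 CPM, by their median, for 8 of 8 genes in Ishikawa, Ishikawa-S33Y and HEC265 and for 7 of 8 in SNGM, which had SOX17 at a median of 0. Summed endothelial markers reached at most 10.6 CPM and summed leukocyte markers at most 5.65 CPM in any library.

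On vehicle, AXIN2, NKD1, ZNRF3, RNF43 and NOTUM were each higher in all 3 mutated lines than in Ishikawa, and LGR5 was lower in all 3. HEC265 had the highest level of every member except LGR5 and DKK1, which had no read in either of its vehicle libraries. Calls rest on an adjusted p under 0.05 in limma, across 17011 genes. By this rule 6 members were higher and 2 lower in Ishikawa-S33Y than in Ishikawa, where 48.3% of all genes were called (20.0% higher and 28.2% lower). SNGM had 6 higher and 2 lower, against 66.8% of all genes called (28.0% higher and 38.8% lower). HEC265 had 8 higher and 2 lower, against 63.3% called (24.9% higher and 38.3% lower). The median change of the 10 members was 0.50, 1.08 and 2.48 (log2) in Ishikawa-S33Y, SNGM and HEC265, beside -0.05, -0.13 and -0.17 over all genes.

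These 3 comparisons share the Ishikawa vehicle libraries. Wild-type CTNNB1 is represented by 1 line of 4, so genotype and line cannot be told apart, and an exact permutation of the genotype label over lines cannot give a p below 0.25. Log2 changes are on the log2(CPM + 1) scale, which understates changes of low genes, and are given ± SE; folds are ratios of mean CPM. CPM is not corrected for gene length, so levels are compared for 1 gene across samples and not between genes. In bulk RNA, fewer cells with a transcript and less of it in each cell cannot be told apart.

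**Figure D1:**
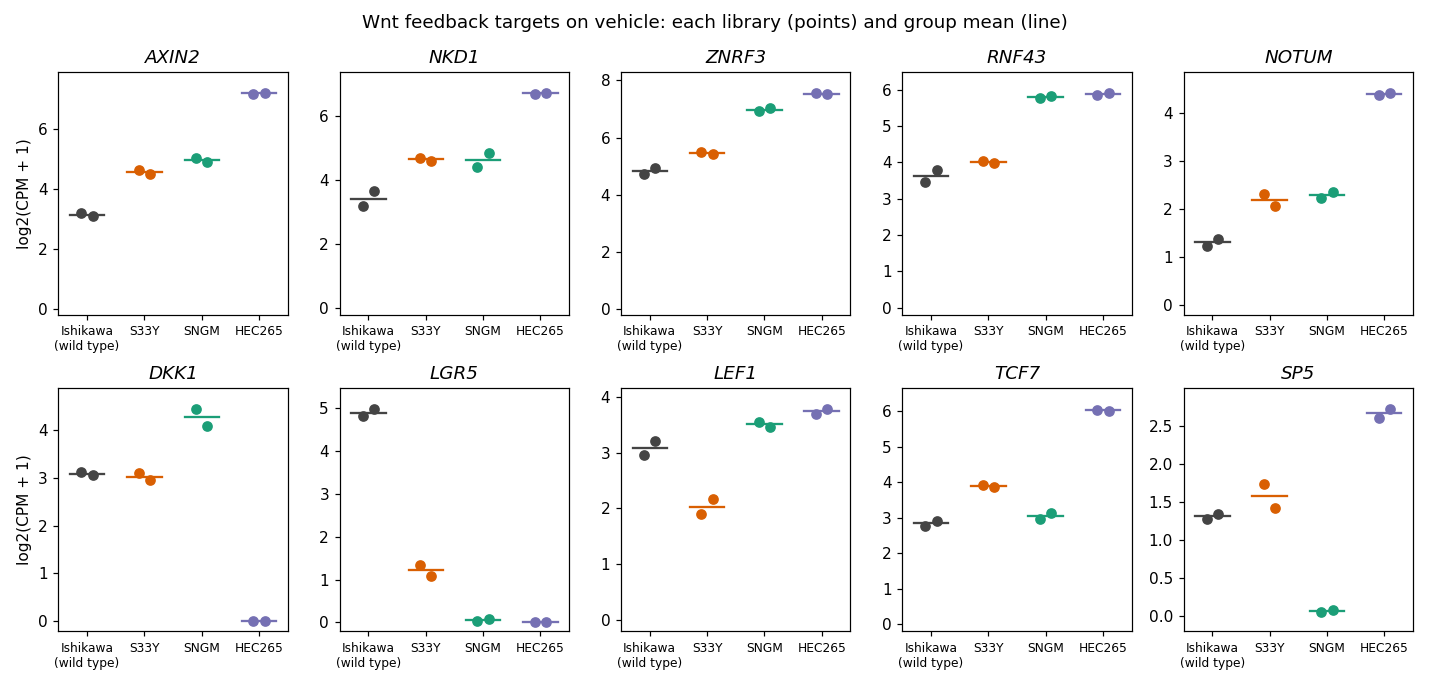
Vehicle levels of the 10 targets in each line, as log2(CPM + 1), with 1 point per library and a line at the mean of 2. The HEC265 points lie above all others for every gene except LGR5 and DKK1, where they lie at 0, and LGR5 is highest in wild-type Ishikawa.

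AXIN2 and NKD1 are inhibitors that act inside the cell. AXIN2, a scaffold of the destruction complex, measured 8.14 and 7.52 CPM in Ishikawa, 23.7 and 21.7 in Ishikawa-S33Y, 31.7 and 28.8 for SNGM, and 144 and 145 for HEC265. No library of 1 line overlapped another line. Mean AXIN2 was 2.90-fold higher in Ishikawa-S33Y than in Ishikawa (log2 change 1.42 ± 0.18, adjusted p = 1.22e-06), 3.87-fold in SNGM (1.82 ± 0.18, 7.42e-09) and 18.5-fold in HEC265 (4.04 ± 0.18, 1.02e-14). The step from Ishikawa-S33Y to SNGM was not called (0.40 ± 0.18, adjusted p = 0.0543). NKD1, which binds Dishevelled and dampens the signal, measured 8.08 and 11.7 CPM in Ishikawa, 24.7 and 23.3 in Ishikawa-S33Y, 20.2 and 27.6 for SNGM, and 103 and 103 for HEC265. Ishikawa was low and HEC265 high without overlap, while the libraries of Ishikawa-S33Y lay within the range of SNGM. NKD1 was 2.43-fold higher in Ishikawa-S33Y than in Ishikawa (log2 change 1.22 ± 0.33, adjusted p = 0.00393), 2.42-fold in SNGM and 10.4-fold in HEC265.

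ZNRF3 and RNF43 are membrane ubiquitin ligases that remove Frizzled receptors from the cell surface. ZNRF3 measured 25.7 and 29.6 CPM in Ishikawa, 43.6 and 41.6 in Ishikawa-S33Y, 121 and 130 for SNGM, and 185 and 183 for HEC265. RNF43 measured 9.93 and 12.9 CPM in Ishikawa, 15.4 and 14.7 in Ishikawa-S33Y, 53.9 and 56.0 for SNGM, and 57.2 and 59.0 for HEC265. Both ligases were ordered Ishikawa, Ishikawa-S33Y, SNGM, HEC265 without overlap. Ishikawa-S33Y differed least from Ishikawa: 1.54-fold for ZNRF3 (log2 change 0.61 ± 0.20, adjusted p = 0.0173) and 1.32-fold for RNF43 (0.38 ± 0.15, adjusted p = 0.0449). HEC265 stood 6.67-fold above Ishikawa for ZNRF3 and 5.09-fold for RNF43, and SNGM stood 4.53-fold and 4.81-fold above it. RNF43 in SNGM and HEC265 did not differ beyond the spread (log2 difference -0.08 ± 0.15).

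The secreted inhibitors followed different orders. NOTUM, an enzyme that removes the lipid from Wnt ligands, measured 1.36 and 1.61 CPM in Ishikawa, 3.94 and 3.19 in Ishikawa-S33Y, 3.70 and 4.10 for SNGM, and 19.7 and 20.4 for HEC265. It was 2.40-fold higher in Ishikawa-S33Y than in Ishikawa (log2 change 0.87 ± 0.18, adjusted p = 0.000506), 2.63-fold in SNGM and 13.5-fold in HEC265, with Ishikawa-S33Y and SNGM overlapping. DKK1, which blocks the LRP co-receptors, measured 7.65 and 7.29 CPM in Ishikawa, 7.54 and 6.71 in Ishikawa-S33Y, 20.4 and 15.9 for SNGM, and 0 and 0 for HEC265. Ishikawa and Ishikawa-S33Y overlapped (log2 change -0.06 ± 0.16, 95% interval -0.40 to 0.28), and SNGM was 2.44-fold above Ishikawa (1.17 ± 0.16, adjusted p = 2.03e-06). Set against 3 reads over both libraries, the limit that a count of 0 allows, DKK1 in HEC265 was at least 120-fold lower than in Ishikawa and at least 293-fold lower than in SNGM.

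LGR5, a receptor for R-spondins that strengthens Wnt signals and marks stem cells in several epithelia, was highest in Ishikawa. It measured 27.3 and 30.3 CPM in Ishikawa, 1.53 and 1.13 in Ishikawa-S33Y, 0.0319 and 0.0586 for SNGM, and 0 and 0 for HEC265. Only the wild-type line was above 2 CPM. The log2 change from Ishikawa to Ishikawa-S33Y was -3.68 ± 0.25 (adjusted p = 3.16e-10), and LGR5 in HEC265 was at least 465-fold lower than in Ishikawa. The SNGM libraries lay below their limit of 3 reads, so SNGM and HEC265 could not be ordered.

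The nuclear partners of beta-catenin were split. LEF1 measured 6.78 and 8.21 CPM in Ishikawa, 2.71 and 3.48 in Ishikawa-S33Y, 10.8 and 10.1 for SNGM, and 12.0 and 12.7 for HEC265. It was lower in Ishikawa-S33Y than in Ishikawa (log2 change -1.05 ± 0.22, adjusted p = 0.000376) and higher in HEC265 (0.66 ± 0.22, adjusted p = 0.0109), whereas SNGM was not called (0.43 ± 0.22, adjusted p = 0.084). The LEF1 call in HEC265 was lost without Ishikawa vehicle replicate 1 (adjusted p = 0.0941) or HEC265 vehicle replicate 2 (adjusted p = 0.0585), and LEF1 in SNGM was called with median re-centring, quantile normalization and limma voom (adjusted p from 0.00227 to 0.0359). TCF7 measured 5.86 and 6.53 CPM in Ishikawa, 14.1 and 13.6 in Ishikawa-S33Y, 6.80 and 7.85 for SNGM, and 65.4 and 63.6 for HEC265. It was 2.24-fold higher in Ishikawa-S33Y (log2 change 1.05 ± 0.27, adjusted p = 0.00322) and 10.4-fold in HEC265, and SNGM was not called (0.21 ± 0.27, adjusted p = 0.513). Quantile normalization called TCF7 in SNGM higher (0.56, adjusted p = 0.037), and a transcript length score as covariate called it lower (-1.52, adjusted p = 0.00465). LEF1 and TCF7 thus had opposite calls between the Ishikawa pair. SP5, a zinc-finger transcription factor that acts at Wnt target genes, measured 1.42 and 1.54 CPM in Ishikawa, 2.32 and 1.68 in Ishikawa-S33Y, 0.0319 and 0.0586 for SNGM, and 5.07 and 5.60 for HEC265. The SP5 libraries of SNGM were below the limit of 3 reads and were called lower than Ishikawa (adjusted p = 0.000278), a call lost with a transcript length score as covariate (adjusted p = 0.389). HEC265 was 3.61-fold higher than Ishikawa, and Ishikawa-S33Y was not called (log2 change 0.27 ± 0.26, adjusted p = 0.433).

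SNGM, where SP5 was near 0, had the highest DKK1, and HEC265, where DKK1 was at 0, had the highest SP5. Among the 3 mutated lines, 24 of the 30 member-by-pair differences were called, beside 57.9% of gene-by-pair tests over all genes. HEC265 and Ishikawa-S33Y differed in all 10 members (58.0% of all genes called), SNGM and Ishikawa-S33Y in 7 (60.8%), and SNGM and HEC265 in 7 (54.9%). CTNNB1 itself did not follow the order of AXIN2: it measured 357 and 313 CPM in Ishikawa, 214 and 207 in Ishikawa-S33Y, 266 and 213 for SNGM, and 409 and 414 for HEC265. Ishikawa-S33Y (log2 change -0.67 ± 0.12) and SNGM (-0.49 ± 0.12) were below Ishikawa for CTNNB1 and HEC265 (0.30 ± 0.12) was above it, all called.

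Other measures moved with the Ishikawa pair. A length score was computed as the mean log2(CPM + 1) over 20 long-transcript genes less the mean of 83 genes of ribosomal proteins. It was -1.93 and -1.61 in the Ishikawa vehicle libraries and -0.56 and -0.70 in those of Ishikawa-S33Y, with 0.57 and 0.96 for SNGM and 0.24 and 0.13 for HEC265. With the score as a covariate, 3 of the 8 calls between Ishikawa-S33Y and Ishikawa were kept: AXIN2 (log2 change 1.00), LEF1 (-1.48) and LGR5 (-4.11). The model has a mean per group, so the slope of the score came only from replicate differences within groups. Comparisons between lines extend that slope to gaps where score and line cannot be told apart. Under that covariate ZNRF3 turned to -0.09 in Ishikawa-S33Y, and NKD1 in SNGM and LEF1 in HEC265 turned to -1.06 and -0.07 against Ishikawa, while NOTUM in SNGM kept its direction and lost its call (0.17, adjusted p = 0.724). Without vehicle replicate 1 of Ishikawa, NKD1, RNF43 and ZNRF3 were not called in Ishikawa-S33Y and 5 calls were left. RNF43 and ZNRF3 in Ishikawa-S33Y were also not called without either of its vehicle replicates or with the samples of both lines alone, and RNF43 was not called without the filter on low values. The 7 fibroblast markers summed to 32.5 to 198 CPM in Ishikawa libraries and 715 to 1166 in Ishikawa-S33Y. Most of it was COL1A1 (medians 66.4 and 970.6 CPM). By their median, 4 of the 7 were above 1 CPM in both lines. Besides COL1A1 these were COL1A2 (1.07 and 1.56 CPM), COL3A1 (1.37 and 3.79) and THY1 (2.22 and 1.16). DCN, LUM and PDGFRB had medians below 1 CPM in both. The part of the markers in these differences was not tested.

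The other genes of the pathway were counted in lists that leave out the 10 members. Of 20 other Wnt targets, 15 were tested; 8 were higher and 2 lower in Ishikawa-S33Y than in Ishikawa, with a median log2 change of 0.52. Over all genes, as given above, 20.0% were higher and 28.2% lower, with a median of -0.05. TNFRSF19 (1.77 ± 0.22), CCND1, the cell cycle gene of cyclin D1 (1.64 ± 0.22), and JAG1, a Notch ligand (1.37 ± 0.18), were the furthest above Ishikawa, and APCDD1 (-1.54 ± 0.14) and BAMBI (-0.92 ± 0.17) were below it. In SNGM, 7 of these 15 were higher and 4 lower than in Ishikawa (median 0.36), beside 28.0% higher and 38.8% lower over all genes. In HEC265, 4 of these 15 were higher and 5 lower than in Ishikawa, close to the 24.9% higher and 38.3% lower over all genes. Of 49 pathway components, 45 were tested, and 22 were higher and 5 lower in Ishikawa-S33Y, with a median of 0.46. Over all genes 20.0% were higher and 28.2% lower in that comparison, with a median of -0.05. The secreted antagonists SFRP5 (2.71 ± 0.23) and SFRP2 (1.78 ± 0.17) and the co-receptor LRP5 (1.63 ± 0.33) were highest above Ishikawa. RSPO3, an R-spondin ligand (-1.99 ± 0.15), and its receptor LGR4 (-1.60 ± 0.12) were lower, as LGR5 was. In SNGM, 13 of the 45 components were higher and 17 lower than in Ishikawa, and in HEC265 12 and 18. Their median was -0.15 in both lines, beside -0.13 and -0.17 over all genes. The lists were not refitted with the length score as a covariate.

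Across the 16 group means, the 5 genes most like AXIN2 outside the members were KCNAB2 (Pearson r = 0.990), FOXP1 (0.988), SYNCRIP (0.984), USP7 (0.982) and RXRA (0.981), among 14409 genes compared. The vehicle means of KCNAB2 were 2.38 CPM for Ishikawa, 5.82 for Ishikawa-S33Y, 8.23 for SNGM and 21.9 for HEC265, the same order as AXIN2. Within the members, r with AXIN2 was 0.979 for NKD1, 0.950 for NOTUM, 0.939 for ZNRF3, 0.875 for RNF43, 0.800 for TCF7, 0.549 for LEF1 and 0.418 for SP5, and it was -0.702 for DKK1 and -0.853 for LGR5. The 16 means come from 4 lines whose groups share their line, so these values describe the order of the lines and carry no p.

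SM08502 was then compared with vehicle within each line, and the activity of the CDC-like kinases was not measured. NOTUM fell in 3 of 4 lines, and no other member was called in more than 1 line. In Ishikawa 4 members fell and 0 rose, beside 15.2% of all genes called and 8.68% lower. Ishikawa-S33Y had a fall of NOTUM and a rise of DKK1, beside 29.1% called, 18.5% higher and 10.6% lower. SNGM had 0 of 10 members called in limma and 1 with an unadjusted p under 0.05, beside 7.86% of all genes called. HEC265 had a fall of NOTUM alone, beside 14.7% called and 5.39% lower. The median change of the members was -0.57, 0.01, 0.02 and -0.15 (log2) in this order of lines, beside 0, 0.11, 0 and 0.07 over all genes.

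**Figure D2:**
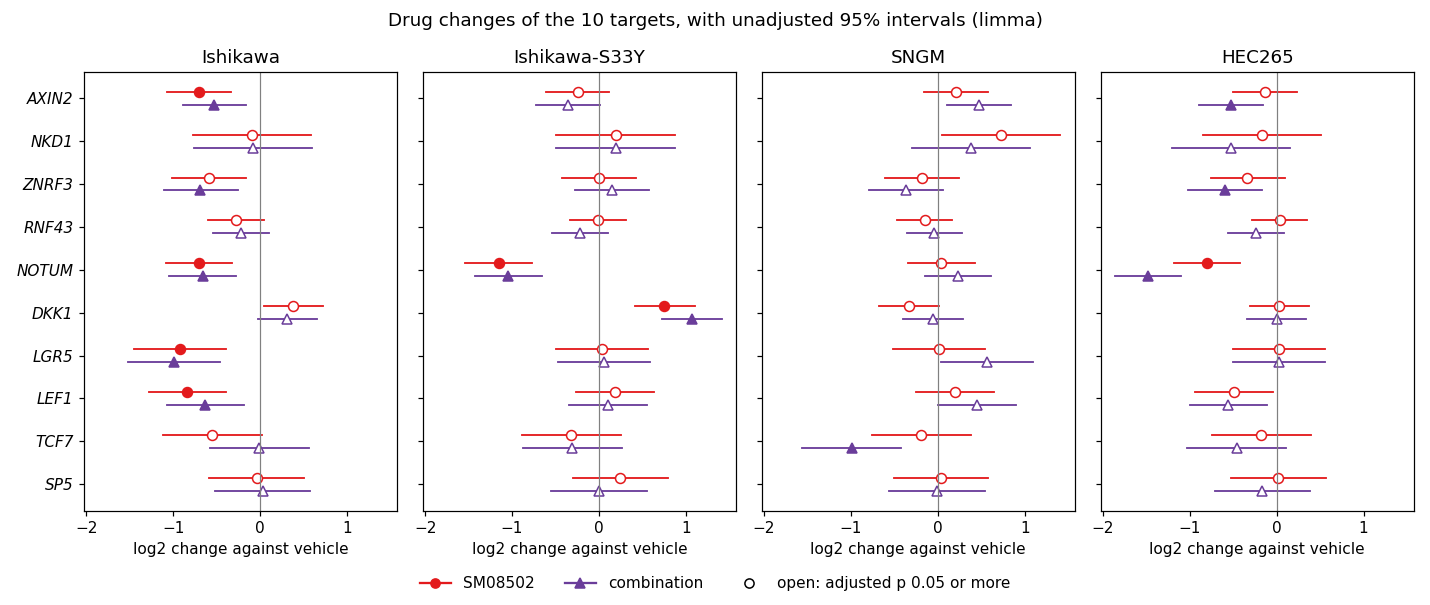
Log2 change of each target on SM08502 (circles) and the combination (triangles) against vehicle, per line, with 95% intervals from limma; filled symbols have an adjusted p under 0.05. NOTUM is below 0 in every line except SNGM, and DKK1 in Ishikawa-S33Y is the 1 target whose filled symbols lie above 0.

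NOTUM on SM08502 measured 0.636 and 0.426 CPM in Ishikawa, 1.11 and 0.988 in Ishikawa-S33Y, 4.21 and 3.88 for SNGM, and 12.3 and 9.95 for HEC265. In Ishikawa, Ishikawa-S33Y and HEC265 both treated libraries lay below both vehicle libraries, and in SNGM they overlapped. Treated NOTUM was 29.4% of vehicle in Ishikawa-S33Y (log2 change -1.15 ± 0.18, adjusted p = 9.53e-05), 35.8% in Ishikawa (-0.70 ± 0.18, 0.0136), 55.6% in HEC265 (-0.80 ± 0.18, 0.00496) and 104% in SNGM (0.04 ± 0.18, 0.968). The change in SNGM differed from that in Ishikawa-S33Y (difference 1.19 ± 0.26, adjusted p = 0.00607), beside 9.83% of all genes called for that difference. Those from Ishikawa (0.74 ± 0.26, adjusted p = 0.115) and HEC265 (0.84 ± 0.26, adjusted p = 0.102) were not called, where 3.66% and 2.03% of all genes were. The log2(CPM + 1) scale understates the fall in Ishikawa, where NOTUM was low on vehicle, and so understates the difference from Ishikawa too. SNGM also received the highest SM08502 dose. The fall in Ishikawa-S33Y was called under all 14 alternatives tried, and that in HEC265 was not called with a pseudocount of 0.1 or without SM08502 replicate 2.

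DKK1 rose on SM08502 in Ishikawa-S33Y, from 7.54 and 6.71 CPM to 12.1 and 13.3, with no overlap. That is 178% of vehicle (log2 change 0.75 ± 0.16, adjusted p = 0.00163), and the call held under all 14 alternatives. In Ishikawa the treated values of 9.66 and 10.4 CPM also lay above both vehicle libraries, without passing the test (0.38 ± 0.16, adjusted p = 0.125). In SNGM the treated values of 13.6 and 14.7 CPM lay below the vehicle libraries (-0.33 ± 0.16, adjusted p = 0.269). The DKK1 change in SNGM minus that in Ishikawa-S33Y was -1.09 ± 0.23 (adjusted p = 0.00526). HEC265 had DKK1 at 0.0446 and 0 CPM on SM08502, below the limit of 3 reads, so no change could be measured there.

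**Figure D3:**
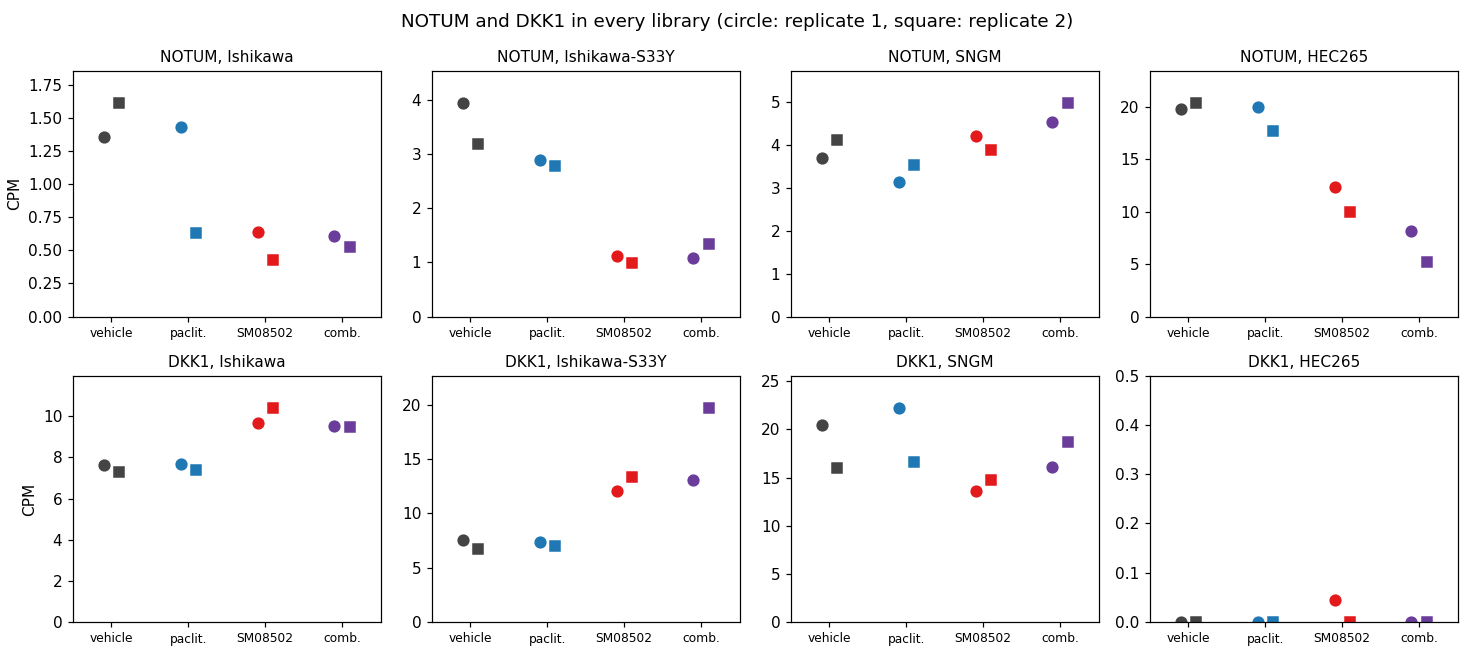
NOTUM (top) and DKK1 (bottom) in CPM in every library, by treatment and line, with circles for replicate 1 and squares for replicate 2; each panel has its own axis from 0. NOTUM on SM08502 and the combination lies below vehicle in Ishikawa, Ishikawa-S33Y and HEC265, and DKK1 in Ishikawa-S33Y lies above vehicle on both.

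AXIN2 on SM08502 measured 5.49 and 3.53 CPM in Ishikawa, 18.4 and 19.6 in Ishikawa-S33Y, 36.1 and 34.1 for SNGM, and 133 and 131 for HEC265. The treated libraries lay below vehicle in Ishikawa, Ishikawa-S33Y and HEC265 and above it in SNGM, yet the test was passed in Ishikawa alone (log2 change -0.70 ± 0.18, adjusted p = 0.00991). The change was -0.24 ± 0.18 in Ishikawa-S33Y (adjusted p = 0.322), 0.21 ± 0.18 in SNGM (0.587) and -0.13 ± 0.18 in HEC265 (0.751). SNGM minus Ishikawa was 0.91 ± 0.25 (adjusted p = 0.0433), which was lost in 10 of 18 alternatives. Over all pairs of lines, 3 of 60 member tests of such a difference were called, near the 4.36% of tests called over all genes.

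**Figure D4:**
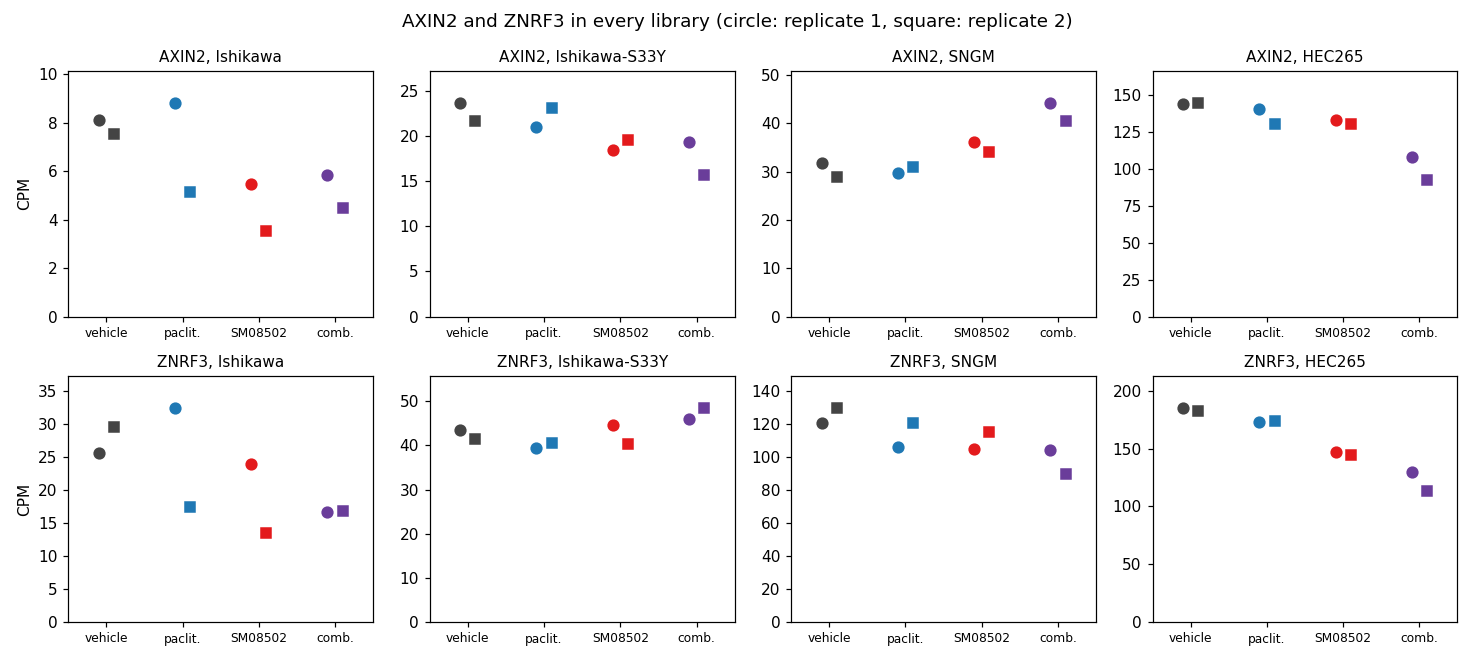
AXIN2 (top) and ZNRF3 (bottom) in CPM in every library, by treatment and line, with circles for replicate 1 and squares for replicate 2; each panel has its own axis from 0. In Ishikawa replicate 2 is the lower on paclitaxel and SM08502 for both genes, and in HEC265 ZNRF3 steps down from 185 and 183 CPM on vehicle to 130 and 113 on the combination.

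LGR5 and LEF1 also fell on SM08502 in Ishikawa. LGR5 went from 27.3 and 30.3 CPM to 19.5 and 11.1 (log2 change -0.92 ± 0.25, adjusted p = 0.0185). With a pseudocount of 0.1 the LGR5 call in limma was lost (-0.96, adjusted p = 0.302). The spread behind its SE is shared with SNGM and HEC265, where LGR5 was near 0. LEF1 went from 6.78 and 8.21 to 4.74 and 2.92 (-0.84 ± 0.22, adjusted p = 0.0118). ZNRF3 measured 23.9 and 13.5 CPM against 25.7 and 29.6, short of the threshold (-0.59 ± 0.20, adjusted p = 0.0562). Median re-centring, quantile normalization, the replicate block and the length score as covariate each called ZNRF3 lower (limma adjusted p from 0.000655 to 0.0436). All treated libraries of these genes lay below vehicle, with replicate 2 the lower in each. In Ishikawa-S33Y LGR5 stood at 1.40 and 1.33 CPM and LEF1 at 3.56 and 3.70 on SM08502, and neither was called.

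**Figure D5:**
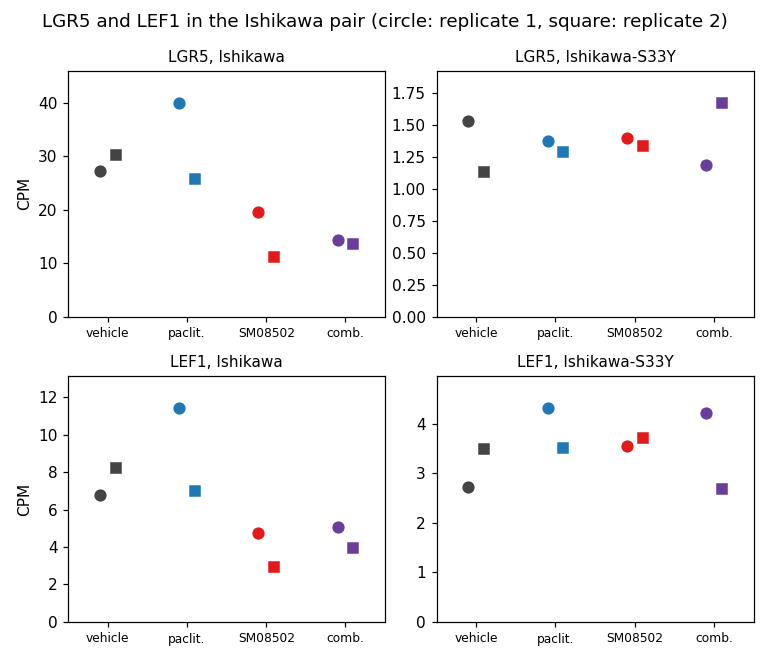
LGR5 (top) and LEF1 (bottom) in CPM in the Ishikawa pair, by treatment, with circles for replicate 1 and squares for replicate 2; each panel has its own axis from 0. In Ishikawa the SM08502 libraries lie below the vehicle libraries for both genes, while LGR5 in Ishikawa-S33Y stays between 1.13 and 1.67 CPM in all 8 libraries.

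The 4 calls in Ishikawa rest on few libraries. With the spread taken from the Ishikawa samples alone 0 of the 4 passed the test, and 0 passed without SM08502 replicate 2, 1 without vehicle replicate 2 (AXIN2) and 2 without vehicle replicate 1 (LEF1 and NOTUM). The length score was -1.50 in SM08502 replicate 1 and -2.23 in replicate 2, and AXIN2, LEF1, LGR5, ZNRF3 and NOTUM were all lower in replicate 2. With the score as a covariate the calls of AXIN2, LEF1, LGR5 and NOTUM were kept, and ZNRF3 was called lower as well (log2 change -0.52). None of these members differed between Ishikawa-S33Y and Ishikawa in their SM08502 change by the test of the difference, for which 0 of 10 members were called in limma (2.43% of all genes), 2 had an unadjusted p under 0.05, and the smallest adjusted p was 0.079. HEC265 likewise gave 0 calls against Ishikawa (2.56% of all genes) and against Ishikawa-S33Y (5.66%), each with 2 members at an unadjusted p under 0.05.

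No other change of a member on SM08502 was called in any line. In SNGM NKD1 measured 51.6 and 30.6 CPM against 20.2 and 27.6 on vehicle, with no overlap and a wide gap between replicates (log2 change 0.73 ± 0.33, adjusted p = 0.211). Among the alternatives, limma voom (adjusted p = 0.0409) and the length score as covariate (adjusted p = 0.00443) called NKD1 higher there. LEF1 in HEC265 measured 8.30 and 8.76 CPM against 12.0 and 12.7, also without overlap (-0.49 ± 0.22, adjusted p = 0.145), and ZNRF3 there measured 147 and 145 against 185 and 183 (-0.34 ± 0.20, adjusted p = 0.331). Median re-centring (adjusted p = 0.0369) and limma voom (adjusted p = 0.0301) called LEF1 lower in HEC265. The spread in the test is shared by all lines: with HEC265 samples alone, LEF1, ZNRF3 and TCF7 were called lower there beside NOTUM. As equal-weight means over the 4 lines, NOTUM (log2 change -0.65 ± 0.09, adjusted p = 1.05e-05) and ZNRF3 (-0.28 ± 0.10, adjusted p = 0.0364) fell, 2 of 10 members beside 38.5% of all genes called and 15.8% lower. ZNRF3 was not called in 10 of the 16 fits that left out 1 library of these groups, and NOTUM was.

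The same pathway lists were read for SM08502. Averaged over the 4 lines, 22.6% of all genes were called higher and 15.8% lower. By the same measure 0 of the 15 other Wnt targets were higher and 5 lower, with EPHB2 (-0.70 ± 0.11), TNFRSF19 (-0.38 ± 0.11) and EPHB3 (-0.35 ± 0.12), the first and last being ephrin receptors, as the largest falls. Of the 45 components 1 was higher and 13 lower. LRP5, the co-receptor that DKK1 binds, fell most (-1.53 ± 0.16, adjusted p = 2.97e-07), from a mean of 81.7 to 13.9 CPM in Ishikawa-S33Y and from 118 to 40.2 in HEC265. The co-repressor TLE2 (-0.64 ± 0.10) and the Frizzled receptor FZD8 (-0.44 ± 0.11) followed, and BTRC, which targets beta-catenin for degradation, was the 1 rise (0.25 ± 0.08). CTNNB1 did not pass the test (-0.04 ± 0.06). The medians were -0.13 for the targets and -0.10 for the components, beside 0.05 over all genes.

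Paclitaxel gave 0 calls in 40 member-by-line tests in limma, and 0 had an unadjusted p under 0.05, beside 0.00882% of gene-by-line tests called over all genes. Member changes ran from -0.32 to 0.34 (log2), with 95% intervals that together spanned -0.94 to 1.02. Replicates were far apart in Ishikawa, where NKD1 measured 19.9 and 7.81 CPM and ZNRF3 32.4 and 17.4 on paclitaxel. The length scores of those libraries were -0.83 and -2.30. NOTUM on paclitaxel measured 2.89 and 2.79 CPM in Ishikawa-S33Y, below both vehicle libraries and above both SM08502 libraries. As a mean over the lines the NOTUM change was -0.21 ± 0.09, with an unadjusted p of 0.0347 that did not pass adjustment.

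On the combination, which shares its vehicle libraries with the comparisons above, NOTUM again fell in Ishikawa, Ishikawa-S33Y and HEC265. In Ishikawa 5 members were lower, beside 22.8% of all genes called and 11.2% lower. Ishikawa-S33Y had 1 lower and 1 higher, beside 42.0% called, 18.0% lower and 24.0% higher. SNGM had 1 lower, beside 18.4% called and 7.54% lower, and HEC265 had 3 lower, beside 19.5% called and 7.16% lower. NOTUM measured 0.611 and 0.523 CPM in Ishikawa, 1.08 and 1.34 in Ishikawa-S33Y, 4.53 and 4.98 for SNGM, and 8.14 and 5.21 for HEC265. In HEC265 that was 33.3% of vehicle (log2 change -1.48 ± 0.18, adjusted p = 9.26e-06), below all 6 other HEC265 libraries. In Ishikawa-S33Y it was 33.9% (-1.05 ± 0.18, adjusted p = 0.000122) and in Ishikawa 38.2% (-0.66 ± 0.18, adjusted p = 0.0133).

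DKK1 on the combination rose to 13.1 and 19.7 CPM in Ishikawa-S33Y, 230% of vehicle (log2 change 1.07 ± 0.16, adjusted p = 2.69e-05). The higher value is from the shallow library, and the call held without it. In HEC265 AXIN2 fell from 144 and 145 to 108 and 92.5 CPM (-0.53 ± 0.18, adjusted p = 0.0386) and ZNRF3 from 185 and 183 to 130 and 113 (-0.60 ± 0.20, adjusted p = 0.0434). Both falls in HEC265 were lost when any 1 of the 4 libraries was left out, although neither gene's groups overlapped. In Ishikawa LGR5 (-0.99 ± 0.25), ZNRF3 (-0.69 ± 0.20), LEF1 (-0.63 ± 0.22) and AXIN2 (-0.53 ± 0.18) fell beside NOTUM, and none of the 5 passed without vehicle replicate 2, without combination replicate 2, or with the Ishikawa samples alone.

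For SNGM the change on the combination was not tested against that in the other lines. AXIN2 measured 44.2 and 40.5 CPM on the combination against 31.7 and 28.8 on vehicle, above all other SNGM libraries, and did not pass the test (log2 change 0.47 ± 0.18, adjusted p = 0.0662). Of 15 alternatives, 4 called it higher: median re-centring, the replicate block, limma voom and the length score (adjusted p from 0.00396 to 0.0232). TCF7 fell from 6.80 and 7.85 to 5.08 and 1.87 CPM (-0.99 ± 0.27, adjusted p = 0.0154), but the lower value is 3 reads of the shallow library, and without the shallow libraries the change was -0.45 (adjusted p = 0.338). LGR5 read 1.24 CPM in the shallow SNGM library, below its limit of 3 reads. As equal-weight means over the 4 lines, NOTUM (-0.74 ± 0.09), TCF7 (-0.44 ± 0.14), ZNRF3 (-0.38 ± 0.10) and AXIN2 (-0.24 ± 0.09) were called lower on the combination and DKK1 (0.33 ± 0.08) higher, 5 of 10 members beside 49.1% of all genes called (20.1% lower and 29.0% higher). Without both shallow libraries the TCF7 mean was -0.33 (adjusted p = 0.032) and the AXIN2 mean -0.18 (adjusted p = 0.121), and AXIN2 was not called in 9 of the 16 fits that left out 1 library. The DKK1 mean takes in HEC265, which had 0 reads in all 4 libraries compared, and of the other lines Ishikawa-S33Y alone was called (0.31 ± 0.16 in Ishikawa and -0.06 ± 0.16 for SNGM).

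Whether paclitaxel added to SM08502 was read from the combination against SM08502 alone. In limma 0 of 40 member-by-line tests were called, and 4 had an unadjusted p under 0.05, beside 0.0970% of gene-by-line tests called over all genes. The lowest adjusted p was 0.167, for TCF7 in SNGM, where the shallow library enters. In HEC265 NOTUM measured 8.14 and 5.21 CPM on the combination against 12.3 and 9.95 on SM08502, without overlap (log2 difference -0.68 ± 0.18, adjusted p = 1). AXIN2 there measured 108 and 92.5 against 133 and 131 CPM (-0.39 ± 0.18, adjusted p = 1).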

How the data were processed

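RNA was purified, depleted of ribosomal RNA and sequenced as total RNA, per the labels' protocols. The submitters' processing notes name bcl2fastq, kallisto, STAR and GRCh38, without a role or order; the counting program, annotation and strand of counting are not given in the sources used here. As deposited, each value is log10(CPM + 1), computed by the authors. They were taken back to CPM, which sum to 1000000 per library; whole reads came out for 100% of values of up to 1000 reads (within 0.1 read) and gave the depth. The plan took the deposited values as log CPM of an open base. The test was run on log2(CPM + 1), a change of base from the deposited log10(CPM + 1).

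Genes above 1 CPM in at least 2 samples were kept (17011, with all 10 members). One limma model (limma 3.58.1, R 4.3.3) with a mean per group was fitted to 32 samples, with an intensity trend, 16 residual and 4.9 prior degrees of freedom. Two-sided p-values were adjusted in each of 31 contrasts (Benjamini-Hochberg, 17011 genes). Intervals are unadjusted. Cells were plated in duplicate, so p-values measure only the spread between such samples, which may be technical. The limits for a count of 0 are 3 reads and, like depth, cover counting error only. The procedure was run on simulated data with the same dispersion in every group and changes planted in Ishikawa-S33Y on SM08502 alone. That run does not cover unequal spread between lines.

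Members, lists and tests were chosen with earlier results of these data known. All 10 members and CTNNB1 are named, with the 3 largest called rises and falls per Wnt list in Ishikawa-S33Y against Ishikawa and in the mean SM08502 change, and the 5 genes most like AXIN2. Without strand, reads of a member and an overlapping gene cannot be told apart: in RefSeq (GRCh38.p14) LEF1, NKD1, LGR5, RNF43, ZNRF3, TCF7 and SP5 overlap at least 1 other gene, and AXIN2, NOTUM and DKK1 overlap 0. AXIN2 lies on chromosome 17 (65528563 to 65561648), NOTUM on 17 (81952507 to 81961187), DKK1 on 10 (52314281 to 52317657) and LGR5 on 12 (71439129 to 71586310). Alternatives were a pseudocount of 0.1, no filter (30872 genes), a stricter filter (mean of at least 2, 12118 genes), median re-centring, quantile normalization, no trend, the compared lines alone, a replicate block, limma voom on recovered reads, the length score and leaving out each replicate. Leaving out both shallow libraries was chosen after seeing the data.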

Additional observations from a re-analysis of the deposited data

Results flagged for a closer look

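For 3 members the SM08502 change differed between lines by a test of that difference, among 60 member-by-pair tests, a share near the 4.36% of gene-by-pair tests called over all genes. For NOTUM the change in SNGM minus that in Ishikawa-S33Y was 1.19 (log2), with NOTUM lower in both treated libraries of Ishikawa-S33Y and overlapping vehicle in SNGM; the adjusted p was 0.00607 and ran from 0.00148 to 0.0395 over 18 alternatives. For DKK1 the same difference was -1.09 (adjusted p = 0.00526, from 0.00164 to 0.0355 over 18 alternatives), with higher DKK1 in both treated libraries of Ishikawa-S33Y and lower DKK1 in both of SNGM. For AXIN2 the change in SNGM minus that in Ishikawa was 0.91 (adjusted p = 0.0433, from 0.00273 to 0.32), and 10 of 18 alternatives did not call it. SNGM received 350.7 nM SM08502, Ishikawa-S33Y 85 nM and Ishikawa 80 nM, so dose and line cannot be told apart.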

How the results depend on the processing

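Of 822 alternative values for 59 member changes, 715 kept their direction and side of the threshold, 79 lost the call, 19 gained it and 9 turned. With the length score as covariate ZNRF3 turned to -0.088 in Ishikawa-S33Y against Ishikawa, LEF1 to -0.511, NKD1 to -1.062 and TCF7 to -1.517 in SNGM, LEF1 to -0.066 in HEC265, and AXIN2 on SM08502 in HEC265 to 0.017. Of these turned values, that of TCF7 in SNGM was called (limma adjusted p = 0.00465). Leaving out each replicate, DKK1 in Ishikawa-S33Y against Ishikawa ran from -0.136 to 0.012 and NOTUM on SM08502 in SNGM from -0.017 to 0.101. The cause was not tested.

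Counts of called members moved as follows. With the length score, Ishikawa-S33Y against Ishikawa gave 3 (8 as reported), SM08502 in SNGM 1 (0), the combination 4 in Ishikawa-S33Y (2) and 5 in SNGM (1), and the differences between lines 14 (3). With the compared line alone, SM08502 gave 0 in Ishikawa (4) and 4 in HEC265 (1), the combination 7 in HEC265 (3), 4 in Ishikawa-S33Y, and 0 both in SNGM and in Ishikawa (5), and differences between lines 5. With voom, SM08502 gave 1 in SNGM, 2 in HEC265 and 4 for the mean over lines (2), the combination 3 in Ishikawa, 2 in SNGM and 5 in HEC265, and differences between lines 5. A pseudocount of 0.1 gave 0 for SM08502 in HEC265, and 3, 2 and 1 for the combination in Ishikawa, SNGM and HEC265. In Ishikawa it lost the limma call of LGR5 on SM08502 (adjusted p = 0.302). On the combination there it lost LGR5 (adjusted p = 0.218) and LEF1 (adjusted p = 0.0557). No filter gave 3 and 1 for the combination in Ishikawa and HEC265 and 1 for the SM08502 mean, and the stricter filter gave 4 for that mean. Median re-centring gave 2 for SM08502 in HEC265, 5 for its mean, 2 for the combination in SNGM and 5 differences between lines, and quantile normalization gave 6 for the mean and 5 differences. Re-centring and quantile normalization moved the median of all genes in HEC265 against Ishikawa by 0.21 and 0.27. Without both shallow libraries the combination in SNGM gave 0.

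Leaving out each replicate gave 5 to 8 members in Ishikawa-S33Y against Ishikawa. For SM08502 it gave 0 to 6 in Ishikawa, 0 to 1 in HEC265 and 1 to 5 for the mean, for the combination 0 to 3 in Ishikawa, 0 to 2 in SNGM and 1 to 1 in HEC265, for the combination against SM08502 0 to 2, and for differences between lines 2 to 9. Where this leaves 1 sample in a group, it is assumed to vary like the others. Same-numbered samples did not deviate together in every pair (r from -0.65 to 0.86 over 6083 genes). Whether they share a plating is not given, and these values cannot decide it. The replicate block gave 2 for the combination in SNGM (1 as reported) and 8 in Ishikawa-S33Y against Ishikawa. For SM08502 in Ishikawa it gave 5 (4 as reported). Testing log10 values as deposited, a change of base, was not run.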
